A study of Mus musculus with 18 samples.

Results

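The genes described here are Hcrt, the precursor of the orexin peptides, and Hcrtr1 and Hcrtr2, the receptors for them. They were taken as every probe set annotated to exactly 1 of these symbols, which gave 3 probe sets of 45037 tested, 1 for each gene of 18193 genes in all. A probe set is a group of short array oligonucleotides that together give 1 intensity. The 18 arrays fell into 2 groups of 9, and all RNA came from brains of mice on a C57BL/6J X DBA/2J background with ages given as 11 and 14 weeks. Both groups carried the same transgene, a BAC (a large genomic clone) in which the orexin coding sequence had been replaced by a flag-tagged rat poly(A)-binding protein followed by an internal ribosome entry site and eGFP. The first group, IP, was poly(A) RNA recovered from brain homogenate with anti-flag beads and labelled as coming from orexin cells, and the other, WB, was total RNA of whole brain. The labels give both groups the same protocol, with perfusion of the mice with 1% formaldehyde, and describe no separate extraction for WB. All libraries started from 5 ng of RNA. The number of founder lines and whether each array came from its own animal are not given in the sources used here, so the p-values speak only of variation among these samples, part of which can be technical. The comparison asked whether the transcript of the gene that marks the tagged cells, and those of its receptors, differed in abundance between the immunoprecipitate and the brain as a whole.

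Orexins are made by a small population of neurons in the lateral hypothalamus that project through most of the brain and sustain wakefulness, feeding and reward seeking. The precursor is cut by prohormone convertases into orexin-A and orexin-B. Hcrtr1 encodes a receptor that prefers orexin-A and is known for its abundance in the noradrenergic locus coeruleus. Hcrtr2 encodes a receptor for both peptides and is known for its abundance in the histaminergic tuberomammillary nucleus. Both couple mainly to Gq proteins and phospholipase C. Loss of orexin neurons or of Hcrtr2 signalling is the textbook cause of narcolepsy.

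The regulatory sequence of Hcrt is shown because the transgene of both groups was built into this gene. In the RefSeq promoter table (assembly GRCm38.p6) a stretch upstream of the Hcrt start site, at chr11:100762947-100762976 on the minus strand, reads 5′ to 3′ as follows, with a TATA motif in capitals.
Hcrt promoter: acctcagagcatTATAAAcccctggcccct
The first base of the motif lay 33 bases upstream of the start site. The letters TATAAA were searched on both strands of promoters of 300 bases, from 250 before to 50 after each start, and 13.6% of 32851 promoters held them. They were found in 0 of the 3 Hcrtr1 promoters and in 0 of the 1 Hcrtr2 promoters of that table. The GC box GGGCGG, which 35.7% of promoters held, occurred 1 time in the Hcrt promoter, where it cannot overlap the TATA motif, and in 0 of those of the receptors.

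The groups differed in array measures that bear on every value below. After 2% of intensities were trimmed at each end, every array had a mean close to 500, but the median log2 value ranged from 7.40 to 7.77 in IP and from 7.89 to 8.14 in WB. The log2 ratio of the 3′ to the 5′ Gapdh probe set, a measure of RNA integrity, ranged from 3.37 to 5.55 in IP and from 1.33 to 1.78 in WB. The same ratio for actin did not separate the groups. It ranged from -1.33 to 0.00089 in IP and from -0.23 to 0.028 in WB (exact permutation, unadjusted p = 0.242). Spiked hybridization controls averaged 13.7 to 15.3 (log2) in IP and 13.1 to 13.5 in WB, with IP replicate 2 the highest. That array also had the highest Gapdh ratio. The part of these measures in the results was not tested. The 3 Trpn control probe sets, which target a bacterial transcript, served as a yardstick of dim signal, and the highest of them on an array ranged from 28.3 to 146 in IP and from 47.5 to 122 in WB (linear intensity). Its median was 111 in IP and 55.0 in WB, and its mean was 38.3 higher in IP (exact permutation, unadjusted p = 0.0209). The yardstick was thus stricter in IP, which lowers the IP counts of arrays above it relative to those of WB. Precision is limited by there being 9 arrays a group.

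Hcrt was measured well above the dim controls in nearly all arrays, and its level did not separate the groups. The Hcrt probe set (1420471_at) had a lowest intensity of 73.8, a median of 308 and a highest of 491 in IP. In WB these were 156, 248 and 388. The groups overlapped, with 3 IP arrays above all of WB and 1 IP array, replicate 2, below all of WB. That lowest IP array was also the 1 IP array in which Hcrt did not exceed the highest Trpn control, whereas it did so in all 9 WB arrays. On the log2(intensity + 16) scale, on which all differences are given, the mean was 8.23 ± 0.74 in IP and 8.02 ± 0.42 in WB (SD, n = 9 each). The difference of 0.21 (SE 0.28, limma adjusted p = 0.568) had a 95% confidence interval from -0.37 to 0.80. In the same fit 45.0% of all probe sets passed adjusted p 0.05 in either direction, and Hcrt was not among them. Its difference was larger than that of 70.3% of all probe sets. The transgene kept short untranslated pieces of the orexin gene, and whether this probe set also reads transgene RNA was not tested.

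**Figure D1:**
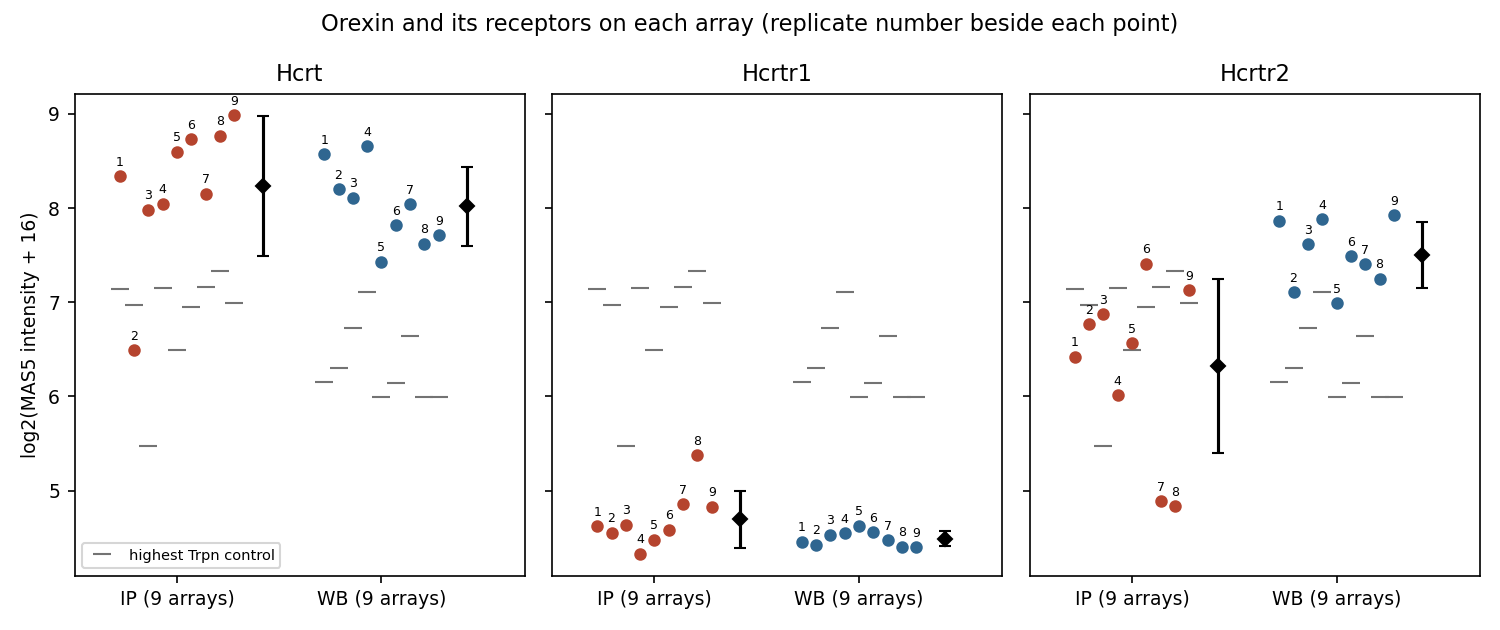
Points give log2(MAS5 intensity + 16) of Hcrt, Hcrtr1 and Hcrtr2 on each IP (red) and WB (blue) array with the replicate number, diamonds and bars the mean ± SD (n = 9), and grey dashes the highest Trpn control of the array. Hcrt overlaps between the groups with IP replicate 2 apart, all 18 Hcrtr1 points lie under the control, and 7 of 9 IP points of Hcrtr2 lie under all WB points.

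Hcrtr1, the receptor that prefers orexin-A, was not detected above the dim controls. Its probe set (1436295_at) had intensities of 4.09 to 25.6 with a median of 8.58 in IP, and of 5.06 to 8.69 with a median of 6.20 in WB. In 0 of 9 IP arrays and 0 of 9 WB arrays did it exceed the highest Trpn control of the same array, so no fold is given. On the log2 scale the means were 4.69 ± 0.30 in IP and 4.49 ± 0.08 in WB (SD, n = 9 each), close to the lowest value that the added 16 allows. The difference of 0.21 (SE 0.15, limma adjusted p = 0.286) did not pass the threshold. The exact permutation test over the 48620 divisions of the arrays gave an unadjusted 2-sided p of 0.0420 for the same difference. IP replicate 8 was the highest, and without it the difference was 0.12. The direction followed the scaling, at 0.63 with median centring (limma adjusted p = 0.00240) and -0.74 with the hybridization controls (adjusted p = 0.0105), so no direction is given for Hcrtr1.

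Hcrtr2, the receptor for both peptides, was lower in IP. Its probe set (1444223_at) had a lowest intensity of 12.5, a median of 78.8 and a highest of 154 in IP. In WB the lowest was 111, the median 164 and the highest 226. Of the IP arrays 7 lay below every WB array, and the other 2, replicates 6 and 9, lay within the WB range. Replicates 7 and 8, at 13.5 and 12.5, lay far below the other IP arrays, which began at 48.5, and they had the highest Trpn controls of the IP group, at 127 and 146. Hcrtr2 exceeded the highest Trpn control in all 9 WB arrays but in 4 of the 9 IP arrays, so that much of the IP signal was in the range of dim controls.

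The log2 mean of Hcrtr2 was 6.32 ± 0.92 in IP and 7.50 ± 0.35 in WB (SD, n = 9 each). It fell by 1.18 (SE 0.34, limma adjusted p = 0.00583), with a 95% confidence interval from -1.88 to -0.49. As 5 of 9 IP values were not above the dim controls, these sizes rest in part on signal of that range. In an alternative added after the data were seen, values below the highest Trpn control of their array were raised to that control. Hcrtr2 was then 1.34-fold lower in IP (exact permutation, unadjusted p = 0.0107), with 3 of 9 IP arrays below all of WB. This size is a lower limit on the deposited scaling only. In log2 the raised difference was -0.42, and the array medians also differed by -0.42. With the values as deposited, all 9 IP arrays lay below the WB mean, and the exact permutation test gave an unadjusted 2-sided p of 0.000699. Of all probe sets 30.8% were lower in IP at the same threshold, and 17.9% had a lower difference than Hcrtr2. As IP is RNA recovered with beads, a lower value cannot be assigned to fewer cells of a type or less RNA per cell. The call was lost with quantile normalization (-0.73, adjusted p = 0.0837) and with centring on the array median (-0.76, adjusted p = 0.0647).

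The position of each gene within its own array gave the same data on a scale that no array factor alters. A median of 63.3% of probe sets were dimmer than Hcrt on the same array in IP and 48.2% in WB. For Hcrtr2 the medians were 34.0% in IP and 35.6% in WB, with IP replicates 7 and 8 at 5.72% and 7.61%. So the middle IP array held Hcrtr2 at nearly the rank it had in WB, and the lowest arrays did not. For Hcrtr1 the medians were 3.64% and 1.50%.

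**Figure D2:**
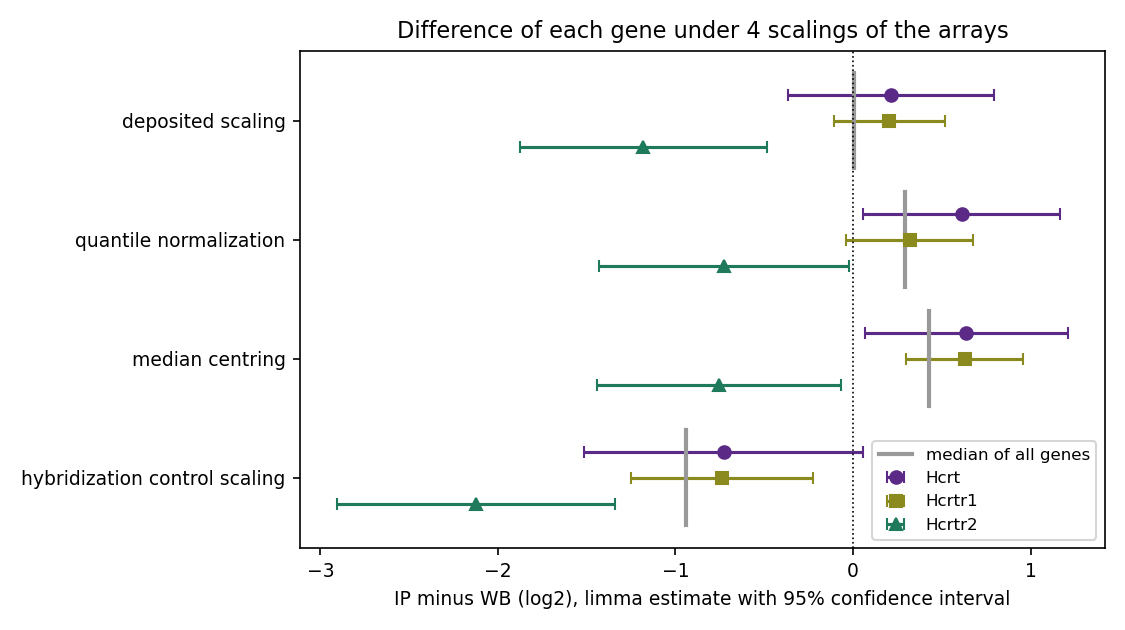
Points give the IP minus WB difference (log2) of each gene under 4 scalings of the arrays, bars the 95% confidence interval of limma, and grey lines the median difference of all 18193 genes under that scaling. Hcrt is higher by 0.21 to 0.64 under 3 scalings and lower by 0.73 with the hybridization controls, and Hcrtr2 is lower under all 4.

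The scaling moved the median difference of all genes. It was 0.0041 with the deposited values, 0.29 after quantile normalization, 0.43 after median centring and -0.94 when arrays were scaled to the hybridization controls. Hcrt was 0.61 with quantile normalization (adjusted p = 0.0664), 0.64 with median centring (adjusted p = 0.0617) and -0.73 with the hybridization controls (adjusted p = 0.0891). It lay above the median of all genes and Hcrtr2 below it under each of these 4 scalings. Median centring and the hybridization controls shift all genes of an array alike. They could not change these positions, so only quantile normalization could have done so. The 4 IP arrays with the highest hybridization controls, replicates 2, 5, 6 and 8, were also set apart, a split chosen after the data were seen. With only those 4 in IP the difference of Hcrtr2 was -1.11 (adjusted p = 0.0279), and with only the other 5 it was -1.24 (adjusted p = 0.00532). For Hcrt these values were 0.13 (adjusted p = 0.810) and 0.28 (adjusted p = 0.380).

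A ratio of 2 genes on the same array cancels the array's scaling apart from the added 16. The log2 ratio of Hcrt over Hcrtr2 was 1.91 ± 1.21 in IP and 0.52 ± 0.36 in WB (SD, n = 9 each). In 8 of 9 IP arrays it exceeded every WB array, and in IP replicate 2, at -0.28, it was below all of them. The difference of 1.39 gave an exact permutation p of 0.00317 (2-sided, 0.00475 adjusted over the 3 ratios). The highest ratios were those of IP replicates 8 and 7, where Hcrtr2 was far below the dim controls. With dim values raised to the controls the ratio was 1.61-fold higher in IP (exact permutation, unadjusted p = 0.00901), with 6 of 9 IP arrays above all of WB and 0 below. Hcrt of IP replicate 2 was itself dim and was raised too, so 1.61 is not a lower bound. The log2 ratio of Hcrtr2 over Hcrtr1 was 1.63 ± 1.12 in IP and 3.01 ± 0.37 in WB, with 8 of 9 IP arrays below every WB array (exact permutation p = 0.000206, adjusted 0.000617). Since Hcrtr1 was under the dim controls on all 18 arrays, this ratio mixes Hcrtr2 with dim signal and adds no separate result. The ratio of Hcrt over Hcrtr1 had a difference of 0.0093 (exact permutation p = 0.980, adjusted 0.980), as Hcrt and Hcrtr1 each differed by 0.21. It likewise mixes Hcrt with dim signal and adds no separate result. The ratio of Hcrt over Hcrtr2 shows an unequal difference of the ligand and this receptor transcript, not which of them changed.

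**Figure D3:**
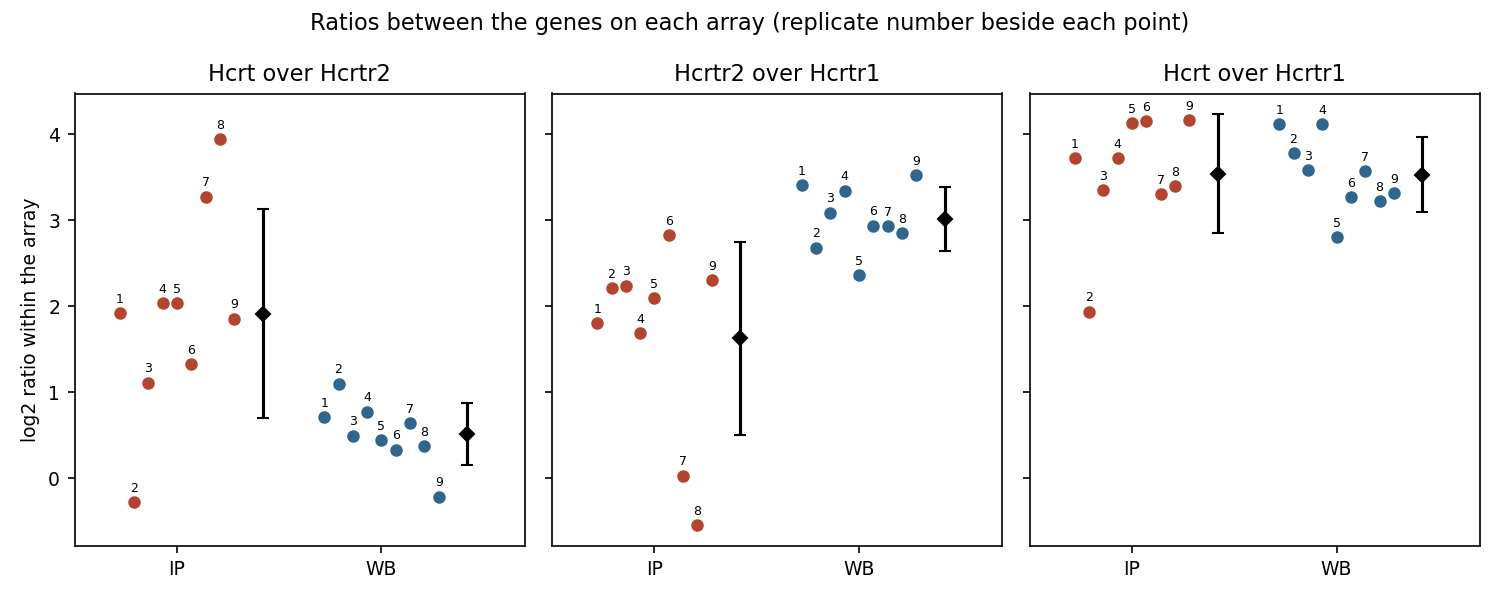
Points give the log2 ratio of 2 genes on each IP (red) and WB (blue) array with the replicate number, and diamonds and bars the mean ± SD (n = 9). Hcrt over Hcrtr2 lies above all WB arrays in 8 of 9 IP arrays, with IP replicate 2 at -0.28.

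The 3 genes varied more among IP than among WB arrays. The SD of Hcrt was 1.77 times, that of Hcrtr2 2.65 times and that of Hcrtr1 3.85 times as large in IP as in WB, where the median over all probe sets was 1.98 times. Pairs of the genes were correlated within each group over 9 arrays, 6 correlations in all. Hcrt and Hcrtr2 had r = -0.053 and rho = 0.083 in IP (exact permutation p = 0.893 and 0.843) and r = 0.57 and rho = 0.45 in WB (exact permutation p = 0.116 and 0.230). Without the 2 arrays farthest from the median of Hcrt, r was 0.028 in IP and 0.19 in WB. Over the 6 correlations the smallest adjusted p was 0.349 for Pearson's r and 0.781 for Spearman's rho, so no relation between the genes passed.

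The genes whose pattern was most like each member were sought over the 18 arrays after subtraction of the group means, among 21251 probe sets with a mean log2 value of at least 7 in both groups. These values are the highest of many and share each array's scaling, so they are descriptions without a test. For Hcrt they were Asic4, an acid-sensing ion channel subunit (r = 0.90, rho = 0.74), Krt42, a keratin (r = 0.88, rho = 0.70), and Ppp1r2-ps7 (r = 0.88, rho = 0.76). Without IP replicates 2 and 9 the r values were 0.73, 0.62 and 0.73. For Hcrtr2 they were Tln1, the cytoskeletal linker talin (r = 0.86, rho = 0.87), Phxr4 (r = 0.86, rho = 0.67) and Hmgxb4 (r = 0.85, rho = 0.59), with r of 0.74, 0.64 and 0.66 without IP replicates 7 and 8. For Hcrtr1, at the level of dim controls, they were Itgae, an integrin subunit, Gabpa, a transcription factor subunit, and Pbrm1, a chromatin remodelling subunit, each with r = 0.86. Without IP replicates 8 and 4 these r values were 0.54, 0.60 and 0.59.

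The genes around the ligand and its receptors were counted from 19 lists, each gene by its brightest probe set on average. Of 246 listed genes 222 were measured on a probe set with 1 symbol, of which 48 were higher and 65 lower in IP at adjusted p 0.05. Over all genes 21.7% were higher and 21.7% lower, with a median difference of 0.0041. With median centring 78 of the listed genes were higher and 38 lower, beside 39.0% and 11.4% of all genes. With the hybridization controls these were 15 and 152, beside 5.08% and 60.0% of all genes, so the counts below moved with the scaling as those of all genes did. With the mean over all probe sets of a gene, 12.5% of all genes were higher and 29.0% lower. Members with several probe sets often disagreed, as said beside the gene.

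Among 15 genes that process precursors such as that of orexin, 4 were higher and 8 lower, with a median of -0.97. This list had more lower than higher members under each scaling tried. Pcsk1, a convertase of regulated secretion, fell 2.19-fold (limma adjusted p = 0.00291). Pcsk1n, which encodes an inhibitor of that convertase, fell 3.27-fold (adjusted p = 9.35e-10), and Scg5, the chaperone 7B2 of the other neuroendocrine convertase, fell 2.59-fold (adjusted p = 1.29e-06). Qpct, the cyclase that forms the N-terminal pyroglutamate found in orexin-A, fell by 0.99 (adjusted p = 0.000861). Furin, a convertase of the constitutive pathway, rose 2.54-fold (adjusted p = 1.07e-06), but not past the threshold with the hybridization controls. Cpe, the carboxypeptidase that trims the cut peptides, rose 1.55-fold (adjusted p = 0.000573) but was lower with quantile normalization and with the hybridization controls. Pam, the enzyme that amidates both orexins, had a difference of 0.085 (adjusted p = 0.707).

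Among 20 G proteins, phospholipases and their regulators 5 were higher and 6 lower, with a median of 0.16. Gnaq, the alpha subunit that couples orexin receptors to phospholipase C, rose 1.54-fold on the probe set used (limma adjusted p = 5.3e-05). Of its 7 probe sets 3 rose and 4 fell, and the mean over them was lower (-0.45). Gnai1, an inhibitory alpha subunit, rose 2.45-fold on 1 of 3 probe sets while another fell, and Gnai2, of the same class, fell 2.15-fold on 1 of 2. Among 17 second messenger enzymes, kinases and calcium-store genes 3 were higher and 8 lower, with a median of -0.63. Dagla, which makes the endocannabinoid that orexin receptor activity is known to release, rose 1.67-fold (adjusted p = 0.0122), but was -0.20 with the hybridization controls. Prkcd, a protein kinase C, fell 3.89-fold on 1 of 2 probe sets (adjusted p = 0.000271).

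Channels and exchangers that receptors of this class act on gave 6 higher and 2 lower of 18, with a median of 0.16, a balance that turned to 2 and 11 with the hybridization controls and to 2 and 8 when all probe sets of a gene were averaged, as the balance of all genes also did. Trpc6, a cation channel, rose 2.10-fold (limma adjusted p = 0.00143), though not past the threshold with the hybridization controls, and Kcnj9, a G protein-gated potassium channel, fell 2.45-fold on 1 of 4 probe sets. Slc8a1, the sodium-calcium exchanger, rose 3.56-fold on the probe set used, but 2 of 4 rose and 2 fell, with a mean over them of -0.54. Genes of receptor desensitisation gave 1 higher and 5 lower of 10, with a median of -0.39. Arrb1, a beta-arrestin, fell 6.18-fold (adjusted p = 4.49e-07) on its 1 probe set, and Arrb2, the other, fell 2.71-fold on 1 probe set while another rose.

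Genes described in orexin neurons gave 5 higher and 3 lower of 26, with a median of -0.05. Plagl1, a zinc finger factor, rose on 1 of 3 probe sets and Nptx2, a neuronal pentraxin, on 1 of 2, by 1.81 and 1.26. Pdyn, the precursor of the dynorphins that orexin neurons co-release, passed the threshold as lower in IP but exceeded the highest Trpn control in 2 of 9 IP and 9 of 9 WB arrays. With dim values raised to the controls the difference was -0.41 and did not separate the groups (exact permutation, unadjusted p = 0.177). The call was also lost with quantile normalization, so no fold is given. Of the 23 receptors and sensors described in these neurons 4 were higher and 3 lower. Tacr3, the neurokinin B receptor, rose 2.78-fold on its brightest probe set, Lepr, the leptin receptor, rose 2.36-fold on 1 of 4, and Npy1r, a neuropeptide Y receptor, fell 3.46-fold on 1 of 2. Nptx2, Tacr3 and Lepr did not pass with the hybridization controls. Of 11 peptides of neighbouring lateral hypothalamic neurons 1 was higher and 4 lower. Crh rose 4.93-fold and Pmch, the melanin-concentrating hormone precursor, fell by 1.15. With the hybridization controls these 3 lists had 1, 0 and 1 higher and 19, 12 and 9 lower members, where 60.0% of all genes were lower.

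The cell classes known to carry orexin receptors were read from their own markers. Of 7 noradrenergic and adrenergic genes, the class known for Hcrtr1, 0 were higher and 3 lower (median -0.50). Th, the rate-limiting enzyme of catecholamine synthesis, fell (limma adjusted p = 0.00132) and exceeded the highest Trpn control in 2 of 9 IP and 8 of 9 WB arrays. It was 1.71-fold lower with dim values raised to the controls (exact permutation, unadjusted p = 0.000658). This is not a lower bound, as values were raised in WB too. Dbh, which makes noradrenaline, fell by 0.50 (adjusted p = 0.0366), which no longer passed after quantile normalization or median centring. Of 8 histaminergic genes, the class known for Hcrtr2, 1 was higher and 1 lower (median -0.17), and the 1 that rose was Maob, monoamine oxidase B, at 3.74-fold, which other cells also express. The 1 that fell was Slc18a2, also counted as lower in the noradrenergic list. Hdc and Wif1 of the histaminergic list exceeded the highest Trpn control in fewer than 5 of 9 IP arrays. Serotonergic genes gave 1 higher and 0 lower of 8, cholinergic genes 1 and 2 of 8, and dopaminergic genes 1 and 2 of 9, with Th again among the lower. Slc18a3, the vesicular acetylcholine transporter, passed as lower in IP but exceeded the highest Trpn control in 0 of 9 IP and 6 of 9 WB arrays, so no size is given.

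Most markers of oligodendrocytes, astrocytes, granule cells and endothelial cells were above the dim controls in both groups. Counted as above the highest Trpn control of the array in at least 5 of 9 arrays, these were 9 of 9, 8 of 9, 8 of 8 and 7 of 8 markers in IP and all of them in WB. Of 10 microglial markers 5 were above in IP and 9 in WB, and of 5 red blood cell markers 3 and 5. Aif1 and Aldh1l1, a microglial and an astrocyte marker, were among those not above in IP. The summed intensity of 9 oligodendrocyte genes ranged from 58794 to 112221 in IP and from 39927 to 54608 in WB, and that of 9 astrocyte genes from 42168 to 70997 and from 31690 to 43236. The astrocyte sum in IP was carried by Gja1, a gap junction protein, with 57.4% of it against 32.0% in WB, while 5 of the 9 genes were lower and their median difference was -0.81. The oligodendrocyte sum was carried in the same way by Mbp (55.6% in IP and 41.9% in WB), and that of granule cells below by Zic1 (63.1% and 51.8%). The sum uses the brightest Mbp probe set. Of 8 Mbp probe sets 4 rose and 4 fell, and the mean over them was lower (-0.28). For 8 cerebellar granule cell genes the sum was 36276 to 73344 in IP and 17708 to 22131 in WB, with 5 higher and 1 lower. With the hybridization controls 3 were higher and 3 lower. The mean over probe sets gave 3 and 1 with a median difference of -0.22, against 0.78 on the brightest. For 10 microglial genes the sum was 8497 to 14873 in IP and 4272 to 6592 in WB. Csf1r, of whose 3 probe sets 1 rose, made up 47.1% of the microglial sum in IP and 29.5% in WB. The median difference of the microglial genes was -0.42. For 8 endothelial genes the sum was 1920 to 3100 in IP and 2883 to 3854 in WB, and for 5 red blood cell genes 450.0 to 1459 and 5180 to 16314. The oligodendrocyte list gave 4 higher and 3 lower, the astrocyte list 3 and 5, the microglial list 3 and 4, the endothelial list 0 and 4 of 8, and the red blood cell list 0 and 3 of 5. The part of these cells in the values of Hcrt and its receptors was not tested.

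**Figure D4:**
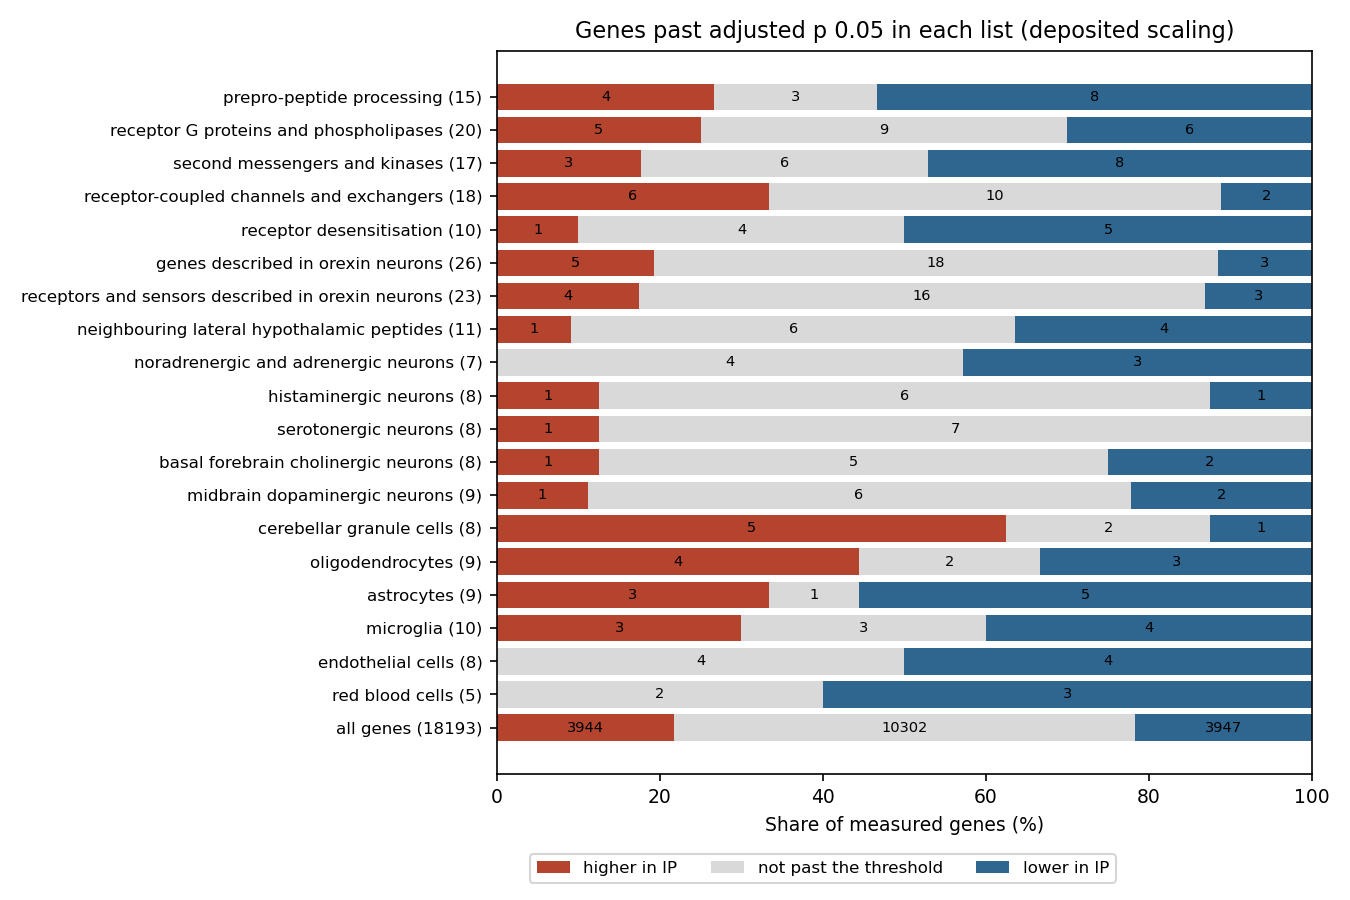
Bars give, for each of the 19 lists and for all genes, the share of measured genes that were higher (red), lower (blue) or not past adjusted p 0.05 (grey) in IP, with the numbers of genes in the bars and the measured genes in parentheses. The list of prepro-peptide processing has 8 lower and 4 higher genes of 15, beside 3947 lower and 3944 higher of all 18193.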

How the data were processed

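The deposited values are intensities of 45101 probe sets on 18 arrays computed by the authors with MAS5, per the submitters' processing notes, with no version named. Detection calls were not used here. From these, log2(intensity + 16) was computed, which understates changes of dim probe sets. The 64 array controls were left out, no filter was applied, and the other 45037 probe sets were fitted with limma 3.58.1 in R 4.3.3 (IP minus WB, intensity trend, Benjamini-Hochberg adjustment over all of them). Probe sets with 1 gene symbol numbered 34945, with several 932 and with none listed 9160. Ratios and correlations were tested by exact permutation in Python 3.11.15. The limma and permutation steps were tested on simulated data.

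The members and lists were chosen with earlier results of these data known. The genes named are the 3 members and the 3 genes most like each member. Those named from the lists passed the threshold, have a described role in orexin signalling or were set against Hcrt on the same array. They were not always the largest changes of a list. P4hb and Cst3, of the processing list, fell 11.4-fold and 6.10-fold. On their brightest probe sets Cacna1b, of the channels, rose 4.39-fold and Nr4a2, of the dopaminergic list, rose 5.05-fold. Alternatives covered pseudocounts, scalings, brightness filters, the trend, array weights, a replicate block, leaving out each array and, added later, raising dim values to the Trpn controls. Same-numbered IP and WB arrays did not deviate together (r from -0.053 to 0.079 over 9 pairs), so the numbers were not treated as pairs. Protein sequences were not used here.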

Additional observations from a re-analysis of the deposited data

Results flagged for a closer look

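In the group of 9 IP arrays the lowest Hcrt value, of replicate 2, lay apart from the others, with a gap to the next array of 0.599 of the whole range of the group. For Hcrtr1 the highest IP value, of replicate 8, lay apart with a gap of 0.499 of the range, at an intensity of 25.6 that was still below the highest Trpn control of that array. Both gaps exceeded Dixon's 95% critical value for 9 values, which chance exceeds in about 1 of 20 groups. The 2 low IP arrays of Hcrtr2 lay close to each other and so did not meet this limit.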

How the results depend on the processing

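Hcrtr2 was lower in every fit that gave it a value, from -1.32 to -0.99 when 1 array was left out, and its call was lost in 2 settings, with quantile normalization (-0.73) and median centring (-0.76). With a replicate block, for numbers that do not pair the arrays, its adjusted p was 0.00748, and 6313 probe sets were higher and 13707 lower. No call of a member changed with that block. Both brightness filters removed Hcrtr1 and Hcrtr2 from the fit. Hcrt kept its side of the threshold throughout, from 0.12 to 0.43 (the latter without IP replicate 2) when 1 array was left out, and was -0.73 with the hybridization controls. Hcrtr1 ranged from 0.12 to 0.25 when 1 array was left out, passed as higher with median centring (0.63) and by the exact permutation test (0.21, unadjusted p = 0.0420), and passed as lower with the hybridization controls (-0.74, adjusted p = 0.0105). Over all probe sets 6403 were higher and 13854 lower. These were 1297 and 30824 with the hybridization controls, 12802 and 8322 with median centring and 10869 higher with quantile normalization. With a mean log2 value of at least 8, where fewer were tested, 7287 were lower. Leaving out 1 array gave 5921 to 6507 higher and 13057 to 14031 lower. Listed genes higher were 78 with median centring, 15 with the hybridization controls and 26 with the mean over probe sets, against 48, and those lower were 38 and 152 with the first 2 of these, against 65. The ratio of Hcrt over Hcrtr1 had either sign, at -0.26 with a pseudocount of 1 and from -0.081 to 0.21 when 1 array was left out. The ratio of Hcrt over Hcrtr2 kept its call, from 1.14 to 1.67 when 1 array was left out and at 0.69 with dim values raised to the controls, where Hcrtr2 was -0.42. That of Hcrtr2 over Hcrtr1, from -1.54 to -1.11, adds no separate result, as Hcrtr1 was under the dim controls. Without the 2 arrays farthest from the median, r of Hcrt with Hcrtr2 in IP was 0.028, against -0.053 over all 9. That of Hcrtr2 with Hcrtr1 turned from -0.58 to 0.70 in IP and from -0.21 to 0.59 in WB. These 2 did not pass without those arrays (permutation, adjusted p = 0.480 and 0.498), and Hcrtr1 was under the dim controls on every array. That of Hcrt with Hcrtr1 in WB turned from -0.083 to 0.18. Cpe was -0.48 with quantile normalization and -0.31 with the hybridization controls, under which Pam was -0.86, Gnaq -0.32 and Dagla -0.20. Pam was -0.23 with only the 4 IP arrays highest in hybridization controls. With the mean over probe sets Gnaq was -0.45 and Slc8a1 -0.54. Each member has 1 probe set, so no other probe set could be set beside it. The causes of these changes were not tested.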

Other observations

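Hcrt was also set against each of the 11 peptides of neighbouring lateral hypothalamic neurons on the same array, a comparison chosen after the data were seen. The 11 ratios share the values of Hcrt and are therefore not independent of each other. The 5 that passed are those to the 4 peptides that were themselves lower in IP (Pmch, Gal, Cck and Trh) and to the 1 that was higher (Crh), while Hcrt did not pass, so they largely restate the calls of the peptides. Relative to 4 of them Hcrt was higher in IP than in WB, and relative to 1 it was lower, by exact permutation tests (2-sided, Benjamini-Hochberg adjusted over the 11). The log2 ratio of Hcrt over Pmch, the melanin-concentrating hormone precursor, was -0.11 ± 0.85 in IP and -1.48 ± 0.53 in WB (SD, n = 9 each), a difference of 1.37 (exact permutation, adjusted p = 0.00558), with 8 of 9 IP arrays above all of WB. For Gal, galanin, the difference was 1.12 (exact permutation, adjusted p = 0.00633), for Cck, cholecystokinin, 1.22 (adjusted p = 0.00558), and for Trh, thyrotropin-releasing hormone, 1.45 (adjusted p = 0.0268). Against Crh, corticotropin-releasing hormone, the ratio fell by 2.09 (exact permutation, adjusted p = 0.000452), with all 9 IP arrays below all of WB. For Nts, Cartpt, Sst, Tac1, Tac2 and Npvf the differences were from 0.04 to 0.68 and did not pass. Without IP replicate 2, 7 ratios were higher and 1 lower, with Pmch at 1.57. That array had the lowest Hcrt value of IP. Its removal therefore favours higher ratios, and the larger count is not a separate result.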
